A study of Mus musculus with 186 samples.

Results

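The comparison covers single basal cells of the adult mouse mammary gland that were carried on different PCR plates. The plate named in the labels was A for basal cells 1 to 60 and B for basal cells 61 to 96. A cell was kept when at least 50000 reads and 1000 genes remained after the mitochondrial and ribosomal protein genes had been set aside, which left 72 of the 96 basal cells of a series of 186 cells. These 72 cells were 50 from plate A and 22 from plate B, and no cell sorted as luminal entered the comparison. All came from untreated adult FVB/NJ mice, were sorted as basal cells (Lin–CD29hiCD24+ in the study), and went through the Fluidigm C1, a device that makes cDNA from 1 cell per site in a microfluidic chip. The labels do not tie a cell to a mouse, a sort or a capture run. Each plate therefore counted as 1 sample, no test or p-value is given for any difference, and a difference between plates, capture runs, sorts or mice cannot be told apart. Intervals are exact 95% intervals that cover counting error only, since reads from PCR without molecular identifiers are not independent molecules.

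Basal cells form the outer layer of the mammary ducts. Their mature form, the myoepithelial cell, carries smooth muscle actin and myosin and contracts in response to oxytocin to expel milk, while keratins 5 and 14 and the transcription factor p63 mark the layer as a whole. Basal cells lay down and adhere to the basement membrane through laminins and integrins, and they send signals such as neuregulin 1 to the luminal cells beside them.

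The number of reads did not separate the plates in the direction of the gene numbers. Reads per cell after gene removal ranged from 69933 to 1740105 (median 1157058) on plate A and from 642140 to 1968860 (median 1342008) on plate B. The cell closest above the read threshold was plate A cell 17, with 69933 reads and 3798 genes, and the closest below it was plate B cell 68, with 37461 reads and 1344 genes. Every passing cell was thinned at random to 50000 reads, so that all values below are at equal depth. Levels are given as CPM, the reads of a gene scaled to a common total, on which 1 read in a cell is 20 CPM. At this depth the plate A cells held from 1079 to 6077 genes with a median of 2896.5. The plate B cells held from 644 to 3666 genes with a median of 1574.5. The ranges overlapped, yet 21 of the 22 plate B cells lay below the median plate A cell and 3 plate A cells lay below the median plate B cell. Without thinning the medians were 4872.5 and 3085 genes. Plate B cells also held more of their reads in few genes. The 100 most abundant genes of a cell took a median of 30.8% of its reads on plate A (25.2 to 61.4%) and 43.8% on plate B (37.2 to 75.4%).

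The label basal held for nearly all cells by its defining genes. Krt5 or Krt14, the basal keratins, had a read in 50 of 50 plate A cells and 19 of 22 plate B cells. Acta2, smooth muscle actin, had a read in 50 and 20 cells. A basal keratin together with Acta2 was found in all 50 plate A cells and in 18 of the 22 on plate B (81.8%, 59.7 to 94.8%). Cell 90 on plate B had none of Krt5, Krt14 and Acta2. Of these genes plate B cell 72 had only 20 CPM of Acta2 and cell 82 only 20 CPM of Krt14, which is 1 read each. Cells 72 and 82 held 2 and 3 basal identity genes, and 12 and 6 of the endothelial markers described below. Of 20 genes of basal identity, plate A cells held from 6 to 17 (median 12) and plate B cells from 0 to 13 (median 9).

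Endothelial transcripts were found in a group of plate B cells. Of 20 endothelial markers, 4 or more were detected in 6 of the 22 plate B cells (27.3%, 10.7 to 50.2%) and in 0 of the 50 on plate A, a count that leaves room for up to 6% of cells. No other cell on either plate had more than 2. The 6 cells were 63, 71, 72, 80, 82 and 95, with from 6 to 13 markers each, and 4 of them also held 9 or more of the basal identity genes. Cell 80 had 13 endothelial markers and 10 basal identity genes, with 940 CPM of Pecam1 (CD31), 15440 CPM of Apold1, an endothelial early response gene, 1000 CPM of Acta2 and 360 CPM of Krt14. Cell 95 had 15960 CPM of Cd36, a fatty acid transporter of capillary endothelium and adipocytes, beside 820 CPM of Krt14 and 1420 CPM of Acta2. Cell 72 had 12 endothelial markers, 11080 CPM of Fabp4 and 0 reads of Krt14. The sort had used antibodies against CD31 and CD45, which mark endothelial and blood cells. Doublets were not called by a program. The study reports that capture sites were inspected by microscope, but the labels do not tie a cell to a capture run. Whether the sites of these cells held a single cell was not tested.

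The 20 endothelial markers summed to 49.2 CPM on plate A, where cells ranged from 0 to 1000 CPM and 13 markers were at 0. On plate B they summed to 3057 CPM, with cells from 0 to 20740 CPM and 3 markers at 0. Without the 6 cells and without 2 cells with more luminal markers than basal identity genes, the sum was 50.2 CPM on plate A and 1.33 CPM on plate B. The 6 cells were left out by these same markers, so the fall on plate B was fixed in advance. The 2 luminal-rich cells were cell 13 on plate A (13 luminal and 12 basal genes) and cell 90 on plate B (13 and 0). The set without all 8 cells, called the reduced set, held 49 plate A and 15 plate B cells. It was defined after these values were seen, and its values are given beside those of all cells for many of the results below. In the reduced set the medians were 2887 and 1281 genes, so the difference in gene number was larger there.

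**Figure D1:**
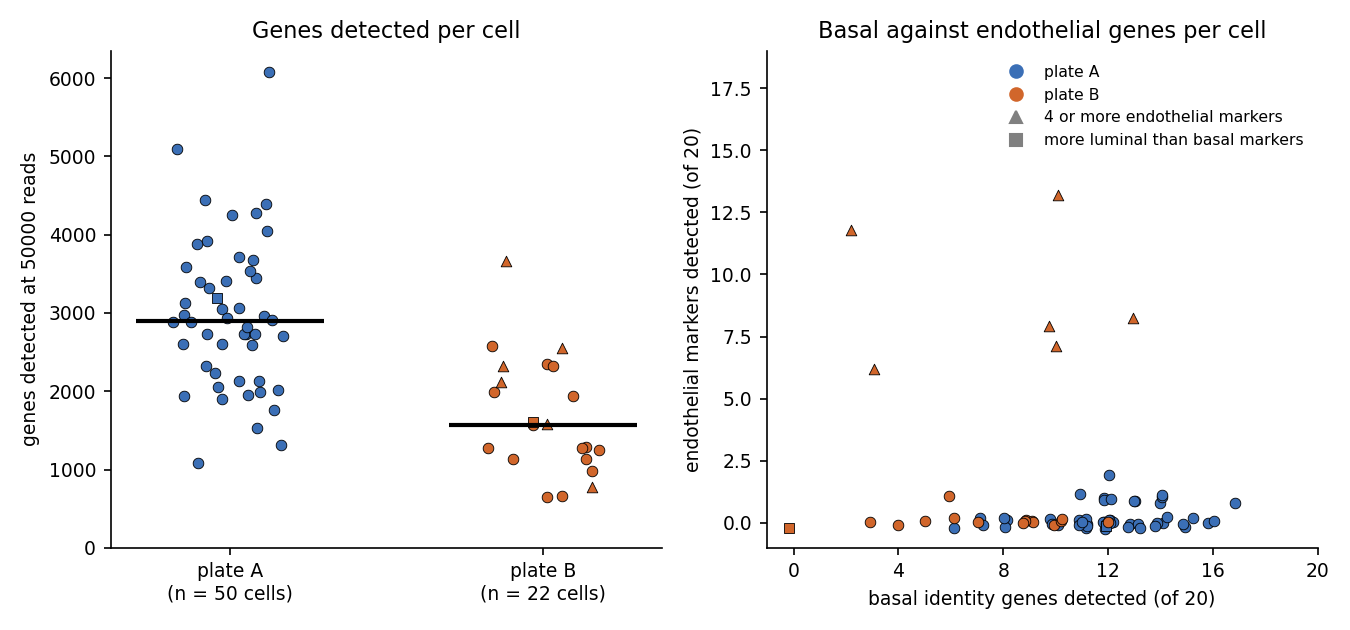
Left, genes detected at 50000 reads in each passing basal cell by plate, with a bar at the median; right, the number of basal identity genes (of 20) against the number of endothelial markers (of 20) per cell, with points shifted slightly so that they do not hide each other. Triangles are the 6 plate B cells with 4 or more endothelial markers and squares the 2 cells with more luminal markers than basal identity genes; plate B lies lower in gene number, with medians of 2896.5 and 1574.5.

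Markers of the other cell types of the gland were read in the same way. The 20 immune markers summed to 59.2 CPM on plate A (0 to 700 CPM per cell, 15 markers at 0) and 485 CPM on plate B (0 to 10380 CPM, 17 at 0). Of the latter, 472 CPM were H2-Aa from cell 82, and Ptprc (CD45) was among the markers at 0 on both plates. The 20 pericyte markers summed to 84.8 CPM (0 to 560, 12 at 0) and 760 CPM (0 to 8560, 8 at 0), mostly Steap4, of which cell 84 held 428 of 531 reads. The 20 fibroblast markers summed to 1333 CPM (0 to 41080, 3 at 0) and 761 CPM (0 to 4580, 9 at 0), the 10 Schwann cell markers to 568 (0 to 4000, 2 at 0) and 156 CPM (0 to 1680, 8 at 0), and the 26 luminal markers to 1328 (60 to 10380, 4 at 0) and 1946 CPM (0 to 10460, 8 at 0). For the fibroblast markers, the 41080 CPM were those of plate A cell 56, and the medians per cell were 340 and 90 CPM. Cell 56 stayed in the reduced set. The 10 adipocyte markers, which share Fabp4 with the endothelial list, summed to 56.4 (0 to 1260, 4 at 0) and 2139 CPM (0 to 11100, 5 at 0). Reduced-set sums were, for the immune markers, 60.4 and 18.7 CPM, for the pericyte markers 86.5 and 709 CPM, for the fibroblast markers 1314 and 644 CPM, for the Schwann cell markers 498 and 50.7 CPM, for the luminal markers 1199.6 and 2027 CPM and for the adipocyte markers 57.6 and 415 CPM. Apart from what is given for the reduced set, the part of these cells in the differences below was not tested.

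Counts of the thinned cells were summed per plate (2500000 reads on plate A and 1100000 on plate B), and the log2 ratio of plate A over plate B was taken after adding 5 CPM to each level, which pulls the ratio of low genes towards 0. Of 7711 genes with a mean level of at least 10 CPM, 3054 (39.6%) were at least 2-fold higher on plate A and 1407 (18.2%) at least 2-fold higher on plate B. To ask for differences spread over cells, a gene was also required to have a read in a share of cells that was at least 20 percentage points larger on the same plate. Both conditions held for 1372 genes on plate A (17.8%) and 31 genes on plate B (0.402%). The median ratio over all genes was 0.55 and its SD over genes 1.81, and 6591 genes (85.5%) were detected in a larger share of the plate A cells. The median gene was seen in 28% of plate A cells and 13.6% of plate B cells, 705 genes had no read on plate B, and 131 had none on plate A.

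The division between the plates depended on the scaling. With TMM factors the whole distribution moved by 0.39 towards plate B and with median-of-ratios factors by 0.44, giving 2461 genes 2-fold higher on plate A against 1909 on plate B with the former and 2383 against 1989 with the latter. In the reduced set, 7321 genes were tested, with 3416 (46.7%) and 1247 (17%) past the fold and 1696 (23.2%) and 12 (0.164%) past both conditions. The 1158 genes past both conditions on plate A in both sets were 84.4% of the list from all cells and 68.3% of that from the reduced set. Only 3 genes were shared on plate B, Plau, Taok3 and Cdkn1b, which were 9.68% of the former list and 25% of the latter.

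The difference in detection reached through all levels, while the ratio did not. In the fifth of genes with the lowest mean level the median ratio was 1.35, with detection in 14% of plate A and 4.55% of plate B cells. In the fifth with the highest level, above 131 CPM, the median ratio was -0.01, yet the median gene was detected in 70% of plate A and 40.9% of plate B cells. Among cells that had a read of the gene, the mean level was lower on plate A for 60.4% of 6875 genes, and for 72.8% of 1534 genes of the highest level (median log2 ratio -0.60). On plate B an abundant transcript was thus often seen in fewer cells and at a higher level in those. Transcript length did not order the ratios, with medians of 0.52, 0.59, 0.57, 0.52 and 0.57 from the shortest to the longest of 5 equal classes.

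**Figure D2:**
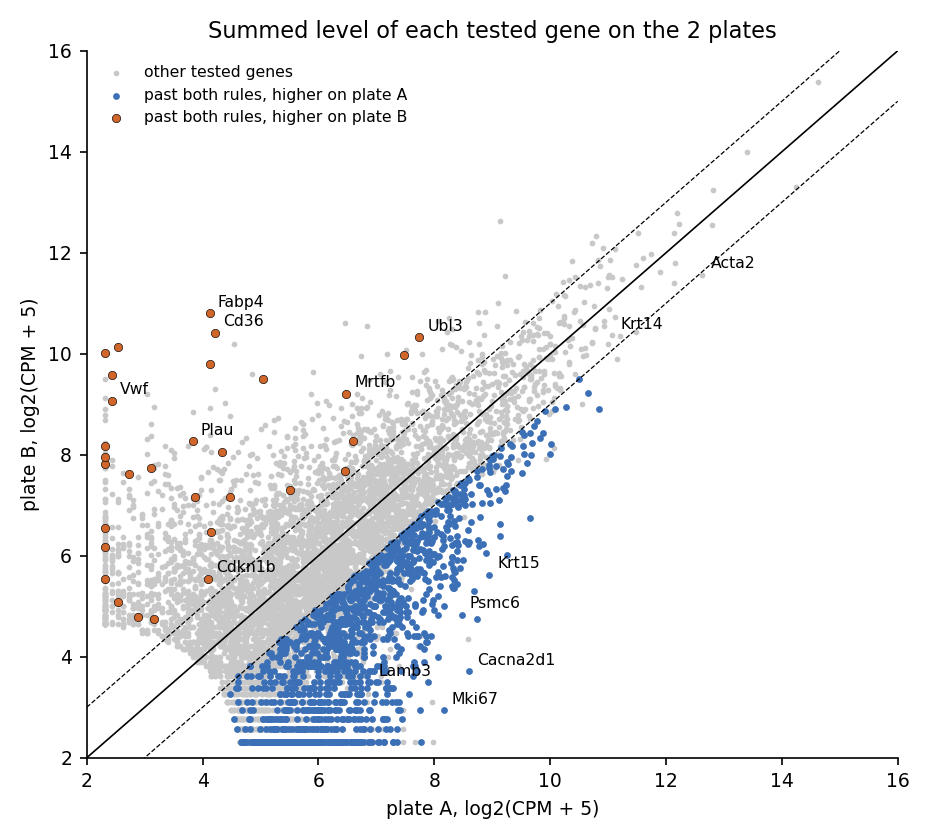
Level of each of the 7711 genes on plate A against plate B as log2 of CPM with 5 CPM added (log axes), with dashed lines at a 2-fold difference. Genes past both conditions are coloured, 1372 on the plate A side and 31 on the plate B side.

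The largest differences on plate A among genes of at least 100 CPM, seen in at least 50% of its cells and not resting on any single cell, were in genes of quite different function. Mki67, the proliferation antigen Ki-67 (chromosome 7, 135689784 to 135716450, GRCm38), ranged from 0 to 3320 CPM (median 10) over the plate A cells and from 0 to 40 CPM (median 0) over the plate B cells. It had 281 CPM on plate A (261 to 303) and 3 reads or 2.73 CPM on plate B (0.562 to 7.97), a log2 ratio of 5.21 with a counting interval of 4.36 to 5.79. A read was found in 25 of 50 plate A cells and 2 of 22 plate B cells. The ranges overlapped at 0, as they did for each gene of this group.

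Cacna2d1, a subunit of voltage-gated calcium channels (chromosome 5, 15934264 to 16374511), had 384 CPM on plate A and 8.18 CPM on plate B, in 54% and 9.09% of cells (log2 ratio 4.88), and 7 of its 9 plate B reads were in the endothelial marker cell 80. The reduced set held 0 reads of the gene on plate B. On plate A 334 of its 961 reads were in cell 54, and the ratio was 4.31 without that cell. Ist1, which helps the ESCRT-III machinery to sever membranes (chromosome 8, 109671321 to 109693297), ranged from 0 to 700 CPM (median 20) on plate A and was at 0 in all 22 plate B cells. Its level was 136 CPM on plate A, at least 50-fold higher than the 3 reads that a count of 0 on plate B allows. This bound and each such bound below cover counting error in the summed reads only, and not the spread between cells. Snw1, a splicing factor (chromosome 12, 87449910 to 87472299), had 126 CPM on plate A and likewise 0 reads on plate B, at least 46.3-fold higher. Each was found in 50% or more of the plate A cells, while 0 of 22 cells allows a share of up to 13.6% on plate B.

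Genes of vesicle traffic were among the same group. Sec24c, of the COPII coat, had 168 CPM on plate A and 2 reads on plate B (log2 ratio 4.67, 3.77 to 5.18), and Copb2, of the COPI coat, had 264 and 10.9 CPM (4.08), of which 10 of 12 plate B reads were in cell 94 (5.28 without it). Signalling genes had ratios of similar size. Tgfbr1, the type I receptor for TGF-beta, had 184 and 4.55 CPM (4.31), and Map2k4, a kinase that activates JNK, had 100 CPM and 1 read (4.15, 3.21 to 4.56). The remaining of these 12 genes were Sugt1, a co-chaperone of HSP90 (137 CPM and 2 reads, 4.38, 3.47 to 4.92), Large2, which glycosylates the laminin receptor dystroglycan (232 and 6.36 CPM, 4.38), Gpatch8 (134 CPM and 2 reads, 4.35, 3.43 to 4.88) and Dclk1, a microtubule-associated kinase (132 and 3.64 CPM, 3.99). In the reduced set the ratios of these 12 genes lay between 3.76 for Dclk1 and 6.31 for Cacna2d1.

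**Figure D3:**
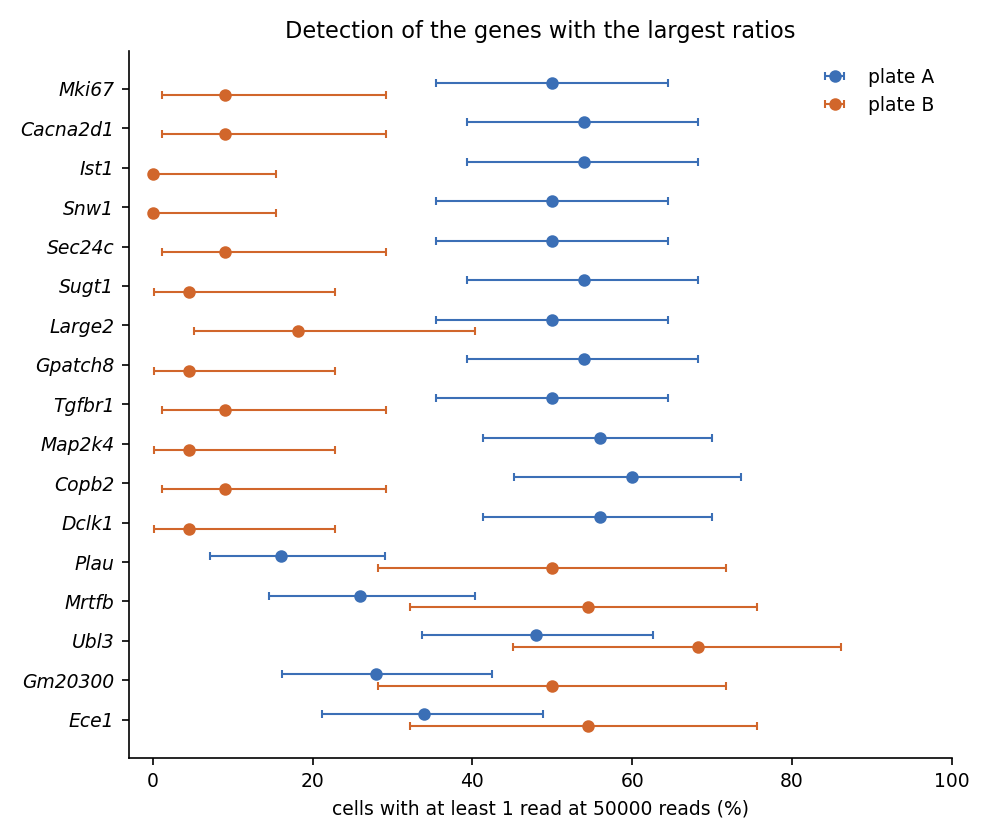
Share of cells with a read at 50000 reads, in percent, for the 17 genes chosen by size of ratio, on plate A and plate B, with exact 95% binomial intervals that cover counting error only. The 12 genes higher on plate A were seen in 50% or more of its cells and in 0 to 18.2% of plate B cells; the 5 genes higher on plate B were seen in 50 to 68.2% of its cells and 16 to 48% of plate A cells.

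The same rule of level, detection and single cells was met by 365 genes on plate A, of which the 12 with the largest ratios are given above, and by 5 on plate B, all of which are given here. Plau, the secreted protease urokinase (chromosome 14, 20836662 to 20843388), ranged from 0 to 160 CPM (median 0) on plate A and from 0 to 5980 CPM (median 10) on plate B. It had 9.2 CPM on plate A and 303 CPM on plate B (log2 ratio -4.44), in 16% and 50% of cells. Of its 333 plate B reads 299 came from cell 84, and without that cell the ratio was -1.40. Mrtfb, a coactivator of serum response factor that drives muscle and cytoskeletal genes (chromosome 16, 13256056 to 13417529), had medians of 0 and 150 CPM per cell and levels of 84.4 and 588 CPM (-2.73). It was found in 26% of plate A and 54.5% of plate B cells.

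Ubl3, a membrane-anchored ubiquitin-like protein, had 208 CPM on plate A and 1276 CPM on plate B (-2.59), and 517 of its 1404 plate B reads were in the endothelial marker cell 82. Gm20300, a predicted transcript, had 174 and 996 CPM (-2.49), with medians of 0 and 360 CPM per cell. Ece1, the enzyme that activates endothelin, had 91.6 and 305 CPM (-1.68). In the reduced set Ece1 had 93.1 and 94.7 CPM (-0.02), so its difference was not present without the endothelial marker and luminal-rich cells. The reduced set gave -4.98 for Plau, -1.88 for Mrtfb, -2.04 for Ubl3 and -2.26 for Gm20300, but in it only Plau met the detection condition.

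The largest ratios among the other 26 genes past both conditions on plate B belonged to genes known from endothelium, named here after their values were seen. Apold1 had 0 reads on plate A and 1026 CPM on plate B, at least 855-fold higher by counting error alone. It was seen in 5 of 22 plate B cells, and 772 of its 1129 reads there were in cell 80. Fabp4 had 12.4 and 1775 CPM (-6.68), Cd36 13.6 and 1365 CPM (-6.20), and Vwf, von Willebrand factor, 1 read and 534 CPM (-6.64, -6.86 to -6.10). Ptprb, the vascular endothelial phosphatase, had 0 reads and 282 CPM, at least 235-fold higher. In the reduced set these 5 genes were at 0 on plate B or higher on plate A. That set was made by leaving out cells with endothelial markers, Fabp4 and Vwf among them. The fall on plate B is therefore no independent evidence. Of the 3 genes past both conditions on plate B in both sets, Plau is given above. Cdkn1b, the cell cycle inhibitor p27, had 12 and 41.8 CPM (-1.46) and was seen in 18% and 45.5% of cells, and in the reduced set 16.3% and 46.7%. Its level ratio was -0.61 without cell 84. Taok3, a kinase of the stress-activated pathways, had 9.6 and 138 CPM (-3.29), and -1.36 without cell 69.

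The 12 genes of the reduced set also held Lrp4, a receptor of the LDL receptor family that acts in Wnt signalling, with 44.1 and 392 CPM there and detection in 36.7% and 66.7% of cells. Over all cells Lrp4 had a log2 ratio of -2.50, and -1.66 without cell 84. Single cells were left out of the ratios over all cells only. For 6 of these 12 genes, leaving out the cell that moved that ratio most brought it inside the 2-fold limit or across 0. Examples are Nanos1 (-2.41, and 0.77 without cell 81) and Kmt2c (-1.07, and -0.33 without cell 84). Sephs2 already lay inside the limit over all cells (-0.98). In the reduced set Nanos1 and Kmt2c had ratios of -2.91 and -1.52, and the part of single cells in them was not tested.

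Turning to function, the counts of each list are read against all genes, of which 39.6% and 18.2% were past the fold and 17.8% and 0.402% past both conditions. Of the 20 basal identity genes 19 were tested, and 8 were 2-fold higher on plate A and 1 on plate B. Past both conditions were 6 on plate A (31.6%, beside 17.8% of all genes) and 0 on plate B, and the median ratio was 0.70 (0.76 in the reduced set, beside 0.84 for all genes there). The keratins differed among themselves. Krt14 ranged from 0 to 12380 CPM (median 1570) on plate A and from 0 to 7620 CPM (median 800) on plate B, with levels of 2144 and 1316 CPM (0.70) that lay within the 2-fold limit. Krt5 had 286 and 136 CPM (1.04), or 0.92 without cell 1 and 0.54 in the reduced set. Krt15, a keratin of stratified epithelia, showed the widest gap, from 0 to 3460 CPM (median 170) on plate A and from 0 to 940 CPM (median 0) on plate B. It had 488 and 44.5 CPM (3.31) in 32 of 50 and 2 of 22 cells, and 47 of its 49 plate B reads were in cell 92 (6.16 without it). Reads of one keratin gene can match another, and how such reads were counted is not given in the sources used here. Other genes with close relatives or pseudogenes, such as the translation factors and respiratory chain subunits, are uncertain in the same way.

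Irx4 and Trp63, transcription factors of the lineage, did not move together, and the other such factors of the list are not given here. Irx4 had 46 CPM in 28% of plate A cells and 0 reads on plate B, at least 16.9-fold higher. Trp63, which encodes p63, had 132 and 185 CPM (-0.47), within the 2-fold limit, and 0.53 without cell 61. Cxcl14, a chemokine, had 125 and 38.2 CPM (1.59), in 82% and 54.5% of cells. In the other direction stood the surface protein podoplanin, Pdpn, with medians of 1860 CPM per cell on plate A and 3490 CPM on plate B and levels of 1915 and 4373 CPM (-1.19; -1.61 in the reduced set), although it was found in 96% and 81.8% of cells.

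The contractile genes had a smaller median difference than the basal identity genes. Of 24 tested, 5 were 2-fold higher on plate A and 3 on plate B, 3 and 0 passed both conditions, and the median was 0.30, or -0.08 and -0.14 under the other scalings and 0.14 in the reduced set. Together they took 22650 CPM on plate A (3880 to 70000 per cell) and 16227 CPM on plate B (140 to 53820). Acta2 ranged from 260 to 29420 CPM (median 5610) on plate A and from 0 to 14480 CPM (median 1770) on plate B, with a log2 ratio of 1.06 that was 0.95 without cell 24 and 0.70 in the reduced set. Myh11, smooth muscle myosin, had 1565 and 1000 CPM (0.64), and 0.16 without cell 54. Past both conditions were Palld and Csrp1, which organise actin filaments, and Oxtr. Palld had 262 and 31.8 CPM in 84% and 40.9% of cells (2.86), and Csrp1 had 75.2 and 7.27 CPM (2.71). Oxtr, the oxytocin receptor, had 181 and 86.4 CPM (1.03), in 62% and 27.3% of cells. Its ratio was 0.82 without cell 55 and 1.84 in the reduced set, and 48 of its 95 plate B reads were in the endothelial marker cell 63.

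Genes of the basement membrane and its integrins lay mostly on the plate A side, with 18 of 22 tested, where all genes had a median of 0.55. Of these 22, 13 were 2-fold higher on plate A and 2 on plate B, 9 (40.9%) and 0 passed both conditions, and the median was 1.10 (0.76 in the reduced set, below the 0.84 of all genes). There, 10 of the 22 genes were 2-fold higher on plate A, where 46.7% of all genes were. Lamb3, a laminin chain, ranged from 0 to 1220 CPM (median 50) on plate A and from 0 to 80 CPM (median 0) on plate B, and had 114 and 6.36 CPM (3.38) in 70% and 18.2% of cells. Lama3, another laminin chain, had 325 and 46.4 CPM (2.68). Hspg2, perlecan, had 78 and 3.64 CPM (3.26), and Col18a1 had 321 and 40.9 CPM (2.83). The integrin chain Itga6 (CD49f), with 935 and 341 CPM (1.44), was found in 50 of 50 and 15 of 22 cells. The laminin chains Lama1 (237 and 552 CPM, -1.20) and Lama5 (32.4 and 125 CPM, -1.80) were the 2 genes higher on plate B, and without cell 92 their ratios were 0.03 and 0.04. Lama3, Itga6, Lama1 and Lama5 were named after their values were seen, as were Pdpn and the further genes below that are said to be within the limit or to rest on single cells.

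Of 15 junction genes, 7 were 2-fold higher on plate A and 1 on plate B, 4 and 0 passed both conditions, and the median was 0.35 (-0.04 and -0.10 under the other scalings, and 0.53 in the reduced set). Cdh1, E-cadherin, ranged from 0 to 620 CPM on plate A, with reads in 20 of 50 cells and a level of 72 CPM, and was at 0 in all plate B cells (at least 26.4-fold higher on plate A). Ctnnb1, beta-catenin, had 596 and 165 CPM (1.82), in 88% and 59.1% of cells. The desmosomal gene Dsp had 359 and 155 CPM (1.18), and 0.97 without cell 19.

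The signals of the basal cell went both ways. Of 13 ErbB ligands and receptors 6 were tested, with a median of 1.01, or 1.08 with genes at 0 set to their bound. With 3 genes on either side of 0 this median was not stable, and it was -0.86 in another thinning draw, -0.69 with a minimum of 1 CPM, and -0.87 both with a minimum of 50 CPM and with a trimmed mean. Egfr, the receptor for EGF, had 51.6 CPM in 34% of plate A cells and 0 reads on plate B, at least 18.9-fold higher, and its ligand Tgfa had 37.2 CPM and 1 read (2.84, 1.80 to 3.33). These were the 2 genes past both conditions. Nrg1, neuregulin 1, held most of the reads of the list and was higher on plate B within the 2-fold limit. It ranged from 0 to 14380 CPM (median 1500) on plate A and from 0 to 23560 CPM (median 1920) on plate B, with levels of 2940 and 5367 CPM (-0.87), and -1.36 in the reduced set.

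Of 27 Wnt and Notch genes 19 were tested, 6 were 2-fold higher on plate A and 2 on plate B, and the median was 0.18 (-0.21 and -0.27 under the other scalings, and -0.05 in the reduced set). Past both conditions were Wnt10a, a Wnt ligand with 27.6 CPM and 0 reads (at least 10.1-fold higher on plate A), and the receptor Notch1 with 78.4 and 10.9 CPM (2.39), whose 12 plate B reads were all in cell 80 (4.06 without it). Lgr4, a receptor for R-spondins that strengthens Wnt signals, had 1378 and 2950 CPM (-1.10), with medians of 1210 and 2060 CPM per cell, and -1.46 in the reduced set.

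Cell cycle genes were found past the fold in both directions. Of 28 tested, 13 were 2-fold higher on plate A and 2 on plate B, 10 (35.7%) and 0 passed both conditions, and the median was 0.79, or 1.61 in the reduced set. Besides Mki67, Cdk1, the kinase of mitotic entry, had 79.6 and 3.64 CPM (3.29), in 34% and 9.09% of cells. Ccnb2, its cyclin partner, had 43.6 CPM and 0 reads (at least 16-fold higher on plate A). Top2a, which untangles DNA before division, had 332 and 38.2 CPM (2.97) in 26 and 2 cells, and 0 reads on plate B in the reduced set. Ccnd2, cyclin D2, stood on the other side. It ranged from 0 to 6100 CPM (median 190) on plate A and from 0 to 22640 CPM (median 650) on plate B, with 595 and 2959 CPM (-2.31), or -1.76 without cell 69, and it was found in 72% and 63.6% of cells.

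To see whether the division genes came from the same cells, the 24 genes of the list that act in DNA replication or mitosis were counted per cell, a choice made after their values were seen. Plate A cells held from 0 to 21 of them (median 7) and plate B cells from 0 to 12 (median 1). At least 6 were found in 28 of 50 plate A cells (56%, 41.3 to 70%) and 4 of 22 plate B cells (18.2%, 5.19 to 40.3%). Mki67 and Top2a occurred together in 20 cells of plate A and in 0 of plate B, where a count of 0 leaves room for up to 13.6% of cells. The number of such genes in a cell tended to go with the number of all genes detected in it. Among cells with at least 2000 genes, at least 6 were found in 28 of 42 on plate A (66.7%, 50.5 to 80.4%) and 3 of 7 on plate B (42.9%, 9.9 to 81.6%), and 4 of these 7 were endothelial marker cells.

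**Figure D4:**
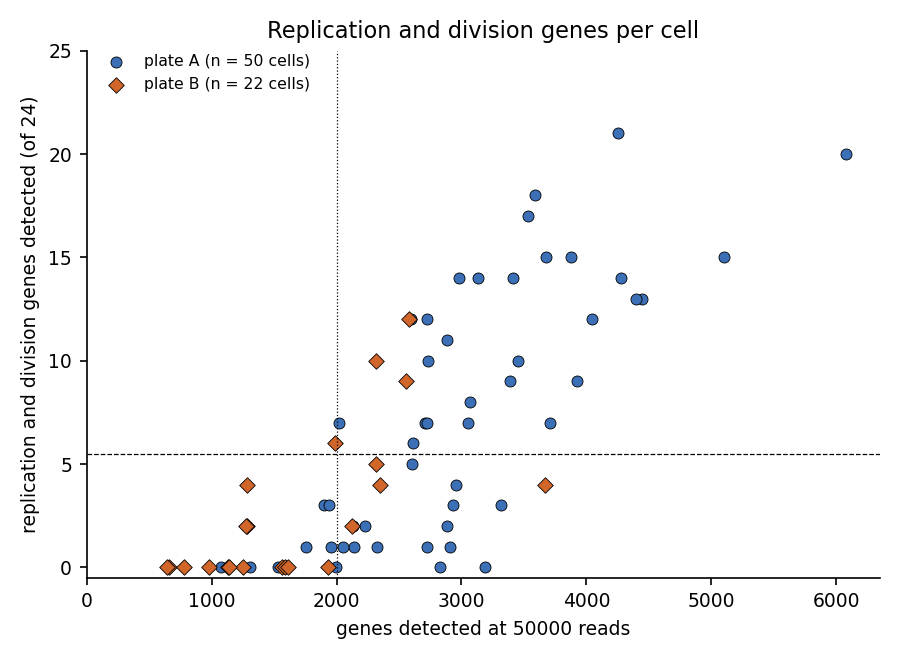
Number of 24 replication and mitosis genes detected in a cell at 50000 reads against the number of all genes detected in it, by plate; the dashed line lies just below 6 such genes and the dotted line at 2000 genes. Cells with more genes tended to hold more division genes, and 28 plate A and 4 plate B cells lay at or above 6.

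Nearly all genes of the respiratory chain lay on the plate A side, to which all genes were shifted as well (median 0.55). Of 37 nuclear-encoded genes tested, 35 were higher on plate A, 20 by at least 2-fold, and 0 were 2-fold higher on plate B. Past both conditions were 17 (45.9%, beside 17.8% of all genes, which were not matched for level). The median was 1.01 (0.62 and 0.56 under the other scalings, and 0.87 in the reduced set, beside 0.84 for all genes there). Together these genes took from 540 to 16820 CPM per cell (median 10410) on plate A and from 1700 to 11240 CPM (median 6250) on plate B. Cox7a2, of cytochrome c oxidase, had 51.2 and 9.09 CPM (2.00), in 86% and 31.8% of cells. The complex I subunits Ndufc1 and Ndufb10 had 47.6 and 8.18 CPM (2.00) and 145 and 35.5 CPM (1.89). The mitochondrially encoded genes, which had been removed before the ratios, took medians of 6.01% and 4.88% of all counts.

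Among genes of protein turnover, 31 proteasome and ubiquitin genes were tested. On plate A 11 were 2-fold higher (35.5%, beside 39.6% of all genes) and all 11 passed both conditions (beside 17.8% of all genes), against 1 and 0 on plate B. The median was 0.84, or 0.79 in the reduced set, beside 0.84 for all genes there. Psmc6, an ATPase of the proteasome cap, ranged from 0 to 1400 CPM (median 250) on plate A and from 0 to 400 CPM (median 0) on plate B. It had 350.0 and 23.6 CPM (3.63) in 42 of 50 and 2 of 22 cells, and 20 of its 26 plate B reads were in cell 76 (5.05 without it). Psmd14 and Psmd11, of the cap's lid, had 249 and 25.5 CPM (3.06) and 160.4 and 29.1 CPM (2.28). Of the 20 heat shock genes 8 were 2-fold higher on plate A and 2 on plate B, 7 and 0 passed both conditions, and the median was 0.84, but 0.77 in the reduced set and -0.12 among cells with at least 2000 genes. The 8 genes were 40% of the list, near the share of all genes. The mitochondrial chaperonins Hspd1 and Hspe1, neighbours on chromosome 1 whose annotated ends overlap and may share reads, had 193 and 64.5 CPM (1.51) and 183 and 50 CPM (1.77), with Hspe1 in 92% and 40.9% of cells. Chordc1, which works with HSP90, had 158 and 25.5 CPM (2.42), or 3.69 without cell 81.

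Translation factors and the unfolded protein response were closer to equal. Of 30 translation factors 7 were 2-fold higher on plate A and 1 on plate B, 6 and 0 passed both conditions, and the median was 0.29 (-0.09 and -0.15 under the other scalings). Eif3h, of the initiation factor that joins messenger RNA to the ribosome, had 325 and 71.8 CPM (2.10). The elongation factor subunits Eef1g and Eef1d had 228 and 55.5 CPM (1.94) and 292 and 86.4 CPM (1.70). Of 20 genes of the unfolded protein and integrated stress response 3 were 2-fold higher on plate A and 1 on plate B, with a median of -0.05. Atf6, a sensor of unfolded protein in the endoplasmic reticulum, had 68.4 and 13.6 CPM (1.98) and was the 1 gene past both conditions, but its ratio was 0.17 among cells with at least 2000 genes.

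Dissociation and sorting of tissue are known to induce immediate early genes, and whether they played a part here was not tested. In all cells the median ratio of these genes lay below that of all genes, a comparison not matched for level. Of 28 tested, 10 were higher on plate A and 18 on plate B. At least 2-fold higher were 5 and 6, and 3 and 0 passed both conditions. The median was -0.27, beside 0.55 for all genes and -0.01 for the fifth of genes with the highest level. Under the other scalings the median of the list was -0.65 and -0.71. Without the 8 cells 7 and 3 were 2-fold higher and 6 and 0 passed both conditions. The median there was -0.06, beside 0.84 for all genes and -0.15 for the fifth with the highest level. Dusp1, a phosphatase that ends MAP kinase signals, had 175 and 37.3 CPM (2.09), and Gem, a small GTPase, 605 and 186 CPM (1.67). Jund, at 19.6 and 7.27 CPM, had a ratio of 1.00 that turned to -0.06 at 100000 reads. Genes of NF-kB signalling and cytokines had a median of -1.15, with 12 of 19 genes 2-fold higher on plate B, beside 18.2% of all genes. On plate B 0 of them passed both conditions. Only 0.402% of all genes did so there, so this count cannot show whether the difference was spread over cells. Single cells carried much of the difference in some of these genes. Il6 had a ratio of -3.22 but -0.19 without cell 72, Ccl2 had -2.44 but 0.42 without cell 72, and Nfkbia had -1.62 but -0.88 without cell 82. Both cells were among those with endothelial markers. In the reduced set, which leaves both out, the median was still -1.28, with 9 of 17 genes 2-fold higher on plate B. Among cells with at least 2000 genes it was 0.63. Past both conditions on plate A were Nfkb2 (38.4 CPM and 1 read, 2.88, 1.84 to 3.37) and the cytokine Csf1 (164 and 27.3 CPM, 2.39).

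Of 13 interferon response genes 5 were 2-fold higher on plate A and 2 on plate B, 2 and 0 passed both conditions, and the median was 0.52 (0.71 in the reduced set). The 2 genes past both conditions were 15.4% of the list, near the 17.8% of all genes. Stat2, which carries the interferon signal to the nucleus, had 67.2 and 3.64 CPM (3.06), or 3.85 without cell 80, and Ifi27 had 211 and 48.2 CPM (2.02), or 3.42 without cell 95. Of 13 p53 and apoptosis genes 5 were 2-fold higher on plate A and 1 on plate B, 3 and 0 passed both conditions, and the median was 0.44 (-0.01 under median-of-ratios scaling). The death receptor Fas had 90.4 CPM in 32% of plate A cells and 0 reads on plate B (at least 33.1-fold higher on plate A). Plk2, a stress-induced kinase, had 576 and 158 CPM (1.83) in 94% and 50% of cells, and Bcl2l11, the cell death activator Bim, had 56.4 and 4.55 CPM (2.69).

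Among metabolic genes, 3 of 16 glycolytic genes were 2-fold higher on plate A and 4 on plate B, with a median of -0.43 in all cells and 0.17 in the reduced set. Pfkp, a phosphofructokinase, had 221 and 10 CPM (3.91), with all 11 plate B reads in cell 63 (5.50 without it) and 281 of 552 plate A reads in cell 41 (2.95 without it). The isoform Pfkm had 4 and 210 CPM (-4.58), and 0.85 without cell 66. The glucose transporter Slc2a1 had 26.4 CPM and 0 reads, at least 9.68-fold higher on plate A. Of 15 sterol and fatty acid genes 8 were 2-fold higher on plate A and 1 on plate B, 4 and 0 passed both conditions, and the median was 1.18, but -0.47 with a minimum of 50 CPM. Fasn, fatty acid synthase, had 40.8 CPM and 0 reads (at least 15-fold higher on plate A). Acaca, which makes its substrate, had 60.4 and 3.64 CPM (2.92), and the desaturase Scd1 had 84.4 and 10 CPM (2.58).

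RNA processing genes lay near the median of all genes, 0.55, when all cells were counted. Of 30 splicing and chromatin genes 8 were 2-fold higher on plate A and 1 on plate B, 6 and 0 passed both conditions, and the median was 0.49 (0.42 in the reduced set). Srsf1, a splicing factor, had 285 and 43.6 CPM (2.58), in 74% and 27.3% of cells. Arid4b and Srrm2 had 303 and 106 CPM (1.47) and 143 and 60 CPM (1.19, or 0.94 without cell 50). Of 7 RNAs retained in the nucleus 2 were 2-fold higher on plate A and 1 on plate B, with a median of 0.63 (0.93 in the reduced set). Neat1, the scaffold of paraspeckles, had 28.4 CPM and 0 reads (at least 10.4-fold higher on plate A) and was the 1 past both conditions. Of its 71 plate A reads 44 were in cell 41, and its log2 ratio was 2.74 with and 1.68 without that cell. Malat1, found in all 72 cells, ranged from 2280 to 66420 CPM (median 16130) on plate A and from 1980 to 23940 CPM (median 9300) on plate B (0.93), so a difference below 2-fold was spread over cells that overlapped widely.

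**Figure D5:**
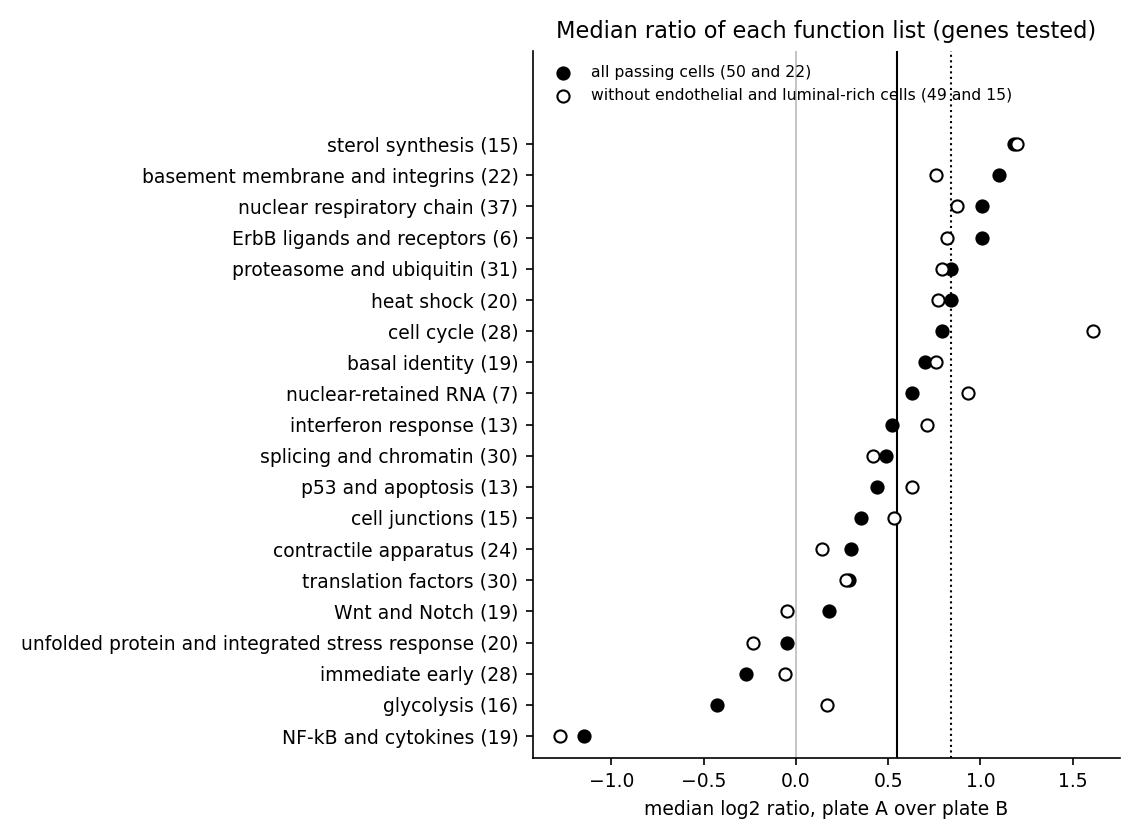
Median log2 ratio of plate A over plate B for the tested genes of each function list, with the number tested in all cells in brackets. Filled points are all passing cells and open points the reduced set; the solid and dotted vertical lines are the medians of all tested genes, 0.55 and 0.84, and the lists range from -1.15 for NF-kB and cytokines to 1.18 for sterol synthesis in all cells.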

How the data were processed

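The authors aligned reads of each cell to mouse build mm10 with Subread, counted them per gene with featureCounts, and deposited raw counts per gene and cell. Strand use and multi-mapping reads are not given in the sources used here. Of 27179 identifiers 25275 matched a RefSeq symbol (GRCm38.p6, coordinates counted from 1), and the others, with 1.66% of the counts of passing basal cells, were left out. Then 15 mitochondrial and 124 ribosomal protein genes were removed, cells below 50000 reads or 1000 genes dropped, and each remaining cell thinned without replacement to 50000 reads (seed 1).

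Thinned counts were summed per plate and the log2 ratio of CPM plus 5 CPM was taken for genes with a mean of at least 10 CPM. Intervals are exact Poisson (levels) and Clopper-Pearson (shares), and a count of 0 was read as up to 3 counts. Simulated counts with known changes were used to test the ratio. Cells were compared for repeated libraries, and the most alike differed by a chi-square of 47.4 per gene. Named genes were the 12 largest ratios per direction past both conditions, with at least 100 CPM and 50% detection on the higher plate and a 2-fold difference without any single cell, the 3 per direction and list with the largest ratio past both conditions, and Krt5, Krt14, Acta2, Myh11, Oxtr and Trp63. The cells compared, the 20 function lists and the 7 marker lists were chosen with earlier results of these data known. Alternatives covered cell and gene filters, depth, seeds, added CPM, scaling (edgeR 4.0.16 TMM factors in R 4.3.3, median-of-ratios factors), the mean over cells, detection rules and single cells. Other steps used Python 3.11.15 with numpy 2.4.6 and scipy 1.17.1.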

Additional observations from a re-analysis of the deposited data

Results flagged for a closer look

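Outlying samples were not looked for, since each plate held more than 10 cells and the plates are the samples. The values below come from data that the comparison did not use and lay above the limit that a count of 0 allows.

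Among the basal cells below the thresholds, the 20 endothelial markers summed to 2668 CPM (2334 to 3037) in the 10 cells of plate A, where a count of 0 allows 35 CPM, and to 333 CPM (254 to 429) in the 14 cells of plate B, where it allows 16.7 CPM. On plate A, 224 of the 229 reads (97.8%) came from cell 38 and 5 cells had a read, whereas on plate B all 14 cells shared 60 reads. The former value therefore rests on 1 cell. Their median mitochondrial share was 7.91% (plate A) and 47.2% (plate B).

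Among passing basal cells, the removed mitochondrial genes took a median of 6.01% of all counts on plate A (3.27 to 82.9%) and 4.88% on plate B (2.66 to 19.4%). The removed ribosomal protein genes took 2.32% (0.0785 to 3.5%) and 1.3% (0.674 to 3.01%). The cells of the plates overlapped in both measures. The highest mitochondrial shares were those of plate A cells 17 (82.9%) and 54 (64.8%), and both cells stayed in the reduced set.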

How the results depend on the processing

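No paired analysis was possible because plate A and plate B share no cell number and the labels name no mouse. The number of genes 2-fold higher on plate A (3054) became 924 with a minimum of 50 CPM, 1873 with a mean trimmed of the highest and lowest cells, and 1732 at 4-fold. The number on plate B (1407) became 729, 335 and 654. The 1372 genes past both conditions on plate A became 701 at 50 CPM, 769 at 4-fold, 604 with 5 reads for detection, and 2378 and 674 with a step of 10 and 30 points. The 31 on plate B became 15 with mitochondrial and ribosomal protein genes kept, 83 and 80 without thinning (mean per cell and summed), 430 among cells with at least 2000 genes (42 and 7 cells), 13 without endothelial marker cells, 12 in the reduced set, and 153 and 3 with a step of 10 and 30 points. Median genes detected were 3284.5 and 1781.5 at 100000 reads and 4872.5 and 3085 without thinning. On plate B they were 1339.5 with the removed genes kept and 1281 in the reduced set. The median of the ErbB list changed sign to -0.69 at 1 CPM, -0.87 at 50 CPM, -0.87 with the trimmed mean and -0.86 in another thinning draw, that of the NF-kB list to 0.07 with the trimmed mean and 0.63 among cells with at least 2000 genes, and that of the sterol list to -0.47 at 50 CPM. Medians nearer to 0 also crossed it over the settings. They ranged from -0.14 to 1.03 (contractile), -0.10 to 1.04 (junctions), -0.27 to 1.32 (Wnt and Notch) and -0.71 to 0.06 (immediate early). Further ranges were -0.12 to 1.01 (heat shock), -0.49 to 0.15 (unfolded protein), -0.01 to 0.69 (p53), -0.87 to 0.80 (glycolysis) and -0.15 to 0.62 (translation factors). Jund changed sign to -0.06 at 100000 reads and to -0.26 in another thinning draw. Trp63 ranged from -1.58 to 0.53. The cause of these shifts was not tested. Of 72 named genes, 51 stayed at least 2-fold apart in every setting tried. Apart from the defining basal genes, they had been chosen for large ratios in these same cells. The count therefore does not measure how stable the ratios of other genes are.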

Other observations

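The luminal cells of the series lay on plates B and C and entered none of the comparison. The 24 passing luminal cells on plate B had a median of 3198 genes at 50000 reads and 0 of them had 4 or more endothelial markers, which summed to 134 CPM. On plate C, 52 cells had a median of 3427.5 genes, 4 had 4 or more endothelial markers, and the sum was 717 CPM. The basal cells on plate B, with 1574.5 genes, thus lay below the luminal cells of the same plate, which are a different population and passed higher thresholds (100000 reads and 1500 genes).

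Several genes without a read in the basal cells of plate B were found in the luminal cells of that plate. Ist1 had 233 CPM in luminal cells on plate B and 284 CPM on plate C, in 83.3% and 73.1% of cells. Snw1 had 114 and 191 CPM, and Cdh1, E-cadherin, 179 and 207 CPM with detection in 79.2% and 78.8% of cells. Mki67 had 113 and 65.8 CPM, in 45.8% and 28.8% of the luminal cells. Irx4 and Wnt10a, by contrast, were at 0 in the luminal cells of both plates. Plau, higher in basal cells on plate B, had 0 reads in luminal cells there and 1.92 CPM on plate C.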
